A study of Mus musculus with 38 samples.

Results

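The Pramel genes of mouse are a large family of paralogues of human PRAME, and this report follows their contact with the inner nuclear membrane in mouse embryonic stem cells and their primed derivatives. The family was taken as every protein-coding gene whose symbol is Pramel followed by a number, which gave 57 genes of the 78202 in the tables. It was selected on measured values, since its members held the largest falls of LAP2B coverage in TKO and QKO cells, and the changes in those genotypes are therefore a description without a test.

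Contacts with the nuclear periphery were measured by CUT&RUN, in which an antibody directs a nuclease to cut out the DNA beside its target, with yeast DNA added as a spike-in. LAP2B, an inner nuclear membrane protein, was profiled in 24 libraries from 4 genotypes at both stages, and LMNB1 (lamin B1) and IGG (a control with secondary antibody only) in 6 libraries each from WT cells, always with 3 libraries per group. WT cells were an XY mouse embryonic stem cell (mESC) line, LBRKO cells were made from them by frameshift indels in Lbr (lamin B receptor), and TKO cells were a separate littermate line lacking the lamin genes Lmna, Lmnb1 and Lmnb2. QKO cells were the 1 surviving clone of TKO cells edited at Lbr as well, with a frameshift deletion in one allele and an in-frame deletion in the other. Naive cells grew in serum-free medium with 2 kinase inhibitors and LIF, and EpiLC cells were live cells of the same lines after priming with FGF and Activin A, each collected 48 hours after seeding. Coverage is of DNA and shows no expression, and neither the cell type nor the loss of the lamins and LBR was checked from it. The chromosome gains and losses that the study's methods give for the WT and TKO lines lie on chromosomes with no Pramel gene. H3K9me3 libraries (2 samples) were left aside.

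PRAME-family proteins are leucine-rich repeat proteins, many of them made in germ cells and early embryos, and PRAME itself is a cancer-testis antigen. PRAME acts as a substrate receptor of a Cullin 2 ubiquitin ligase and represses signalling by retinoic acid receptors. PRAMEL7, found in the inner cell mass and in naive embryonic stem cells, directs the DNA methylation factor UHRF1 to degradation, and Pramel6 and Pramel7 support self-renewal. Gene-poor, repeat-rich clusters of tandem paralogues are typical residents of lamina-associated domains, the stretches of chromosome held at the nuclear edge by the lamins and LBR.

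The 57 genes lay in 7 places. The chromosome 5 cluster held 23 genes over 2.32 Mb (chr5:93629688-95952089, GRCm39), 15 on the plus and 8 on the minus strand. The large cluster on chromosome 4 held 22 genes over 1.01 Mb (chr4:143120981-144135034), and a small one on the same chromosome held Pramel17, Pramel18 and Pramel19 (chr4:101691150-101800380). Pramel3a to Pramel3e made up the chromosome X cluster (chrX:134068373-134405343). Pramel7 (ENSMUSG00000025839, minus strand) and Pramel6 (ENSMUSG00000025838, plus strand) faced away from each other on chromosome 2 with 9.47 kb between their starts (chr2:87319431-87341216), and Pramel32 (chr4:88545557-88552648) and Pramel51 (chr12:88142359-88148878) stood alone. Head-to-head neighbours were found on chromosome 5 as well, where Pramel37 and Pramel53, Pramel43 and Pramel44, and Pramel50 and Pramel54 were 5.84, 5.87 and 5.84 kb apart.

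Most members had at least 1 close copy. The coding sequence of the closest other member was at least 90% identical for 47 of the 57 genes, including all 23 on chromosome 5, where it was 97.6 to 100% identical, and all 5 on chromosome X. Pramel36 and Pramel49, Pramel37 and Pramel50, Pramel53 and Pramel54, Pramel56 and Pramel60, Pramel55 and Pramel57, and Pramel3b and Pramel3c were identical over their coding sequences. Over all pairs of a place the median identity was 79.5% on chromosome 5, 59.3% in the large chromosome 4 cluster and 58.8% for the chromosome 2 pair. Reads from stretches identical between copies cannot be assigned to 1 of them. Identity was compared over coding sequences only, and the share of reads this touches was not measured. No filter on mapping quality is given in the study's methods, so single values on chromosomes 5 and X are uncertain. In the large chromosome 4 cluster 16 of 22 genes also had a copy at least 90% identical. Among them were Pramel30 and Pramel14 (99.3% identical) and Pramel61 and Pramel4 (99.9%). The single values of these 16 genes are uncertain as well. The 10 genes with no copy this close were Pramel1, Pramel6, Pramel7, Pramel12, Pramel13, Pramel15, Pramel17, Pramel23, Pramel26 and Pramel32.

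The start regions printed here belong to genes on which the results turn. Copies from chromosome 5 with low LAP2B coverage in the mutants come first, then 3 distinct genes whose naive QKO changes were smaller. Each is 300 bases of GRCm39, from 250 before to 50 after the 5′ end of the annotated gene, read 5′ to 3′ on the gene's strand. Capitals mark TATAAA or its complement TTTATA, and CCAAT or its complement ATTGG, which do not overlap one another. The windows are chr5:94076862-94077161 (minus) for Pramel36, chr5:94764152-94764451 (minus) for Pramel43, chr5:94223994-94224293 (plus) for Pramel53, chr5:93688010-93688309 (minus) for Pramel33, chr2:87336659-87336958 (plus) for Pramel6, chr2:87327388-87327687 (minus) for Pramel7 and chr4:144134985-144135284 (minus) for Pramel13.
Pramel36: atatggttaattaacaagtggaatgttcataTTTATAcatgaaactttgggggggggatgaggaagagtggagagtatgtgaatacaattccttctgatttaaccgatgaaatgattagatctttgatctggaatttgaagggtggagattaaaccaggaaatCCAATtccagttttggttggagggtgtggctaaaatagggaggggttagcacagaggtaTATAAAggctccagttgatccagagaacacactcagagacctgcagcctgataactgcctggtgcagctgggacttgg
Pramel43: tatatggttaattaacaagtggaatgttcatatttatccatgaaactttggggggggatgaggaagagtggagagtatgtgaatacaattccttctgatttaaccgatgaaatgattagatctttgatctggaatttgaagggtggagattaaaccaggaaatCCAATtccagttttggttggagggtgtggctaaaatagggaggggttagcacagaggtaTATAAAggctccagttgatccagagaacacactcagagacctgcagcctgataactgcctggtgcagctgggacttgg
Pramel53: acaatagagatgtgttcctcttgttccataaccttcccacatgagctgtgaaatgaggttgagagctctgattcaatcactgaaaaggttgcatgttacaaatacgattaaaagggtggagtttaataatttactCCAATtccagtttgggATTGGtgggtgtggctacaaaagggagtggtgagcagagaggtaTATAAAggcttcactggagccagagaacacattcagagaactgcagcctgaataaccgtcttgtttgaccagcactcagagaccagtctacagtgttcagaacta
Pramel33: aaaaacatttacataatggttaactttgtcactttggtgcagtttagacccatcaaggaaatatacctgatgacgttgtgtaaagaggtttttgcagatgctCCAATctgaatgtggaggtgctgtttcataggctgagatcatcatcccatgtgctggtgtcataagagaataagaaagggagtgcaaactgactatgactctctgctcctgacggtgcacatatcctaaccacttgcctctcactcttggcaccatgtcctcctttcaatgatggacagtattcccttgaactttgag
Pramel6: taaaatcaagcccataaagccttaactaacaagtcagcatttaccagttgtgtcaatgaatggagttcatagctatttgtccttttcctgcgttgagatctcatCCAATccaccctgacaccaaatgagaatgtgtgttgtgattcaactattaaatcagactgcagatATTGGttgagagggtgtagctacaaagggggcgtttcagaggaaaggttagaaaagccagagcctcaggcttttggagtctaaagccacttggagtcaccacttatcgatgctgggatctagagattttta
Pramel7: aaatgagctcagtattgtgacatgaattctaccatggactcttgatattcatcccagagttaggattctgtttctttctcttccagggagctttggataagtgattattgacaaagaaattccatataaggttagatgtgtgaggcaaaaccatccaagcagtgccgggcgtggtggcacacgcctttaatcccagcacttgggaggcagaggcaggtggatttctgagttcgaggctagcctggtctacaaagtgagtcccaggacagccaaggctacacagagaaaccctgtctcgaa
Pramel13: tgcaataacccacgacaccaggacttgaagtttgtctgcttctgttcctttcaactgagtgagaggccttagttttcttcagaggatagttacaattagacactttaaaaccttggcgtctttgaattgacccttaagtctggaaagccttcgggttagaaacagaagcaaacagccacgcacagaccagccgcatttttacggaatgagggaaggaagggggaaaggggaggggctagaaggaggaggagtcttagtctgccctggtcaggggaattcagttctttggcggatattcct

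The window of Pramel36 was identical to that of Pramel49 and 99.0% identical to that of Pramel43, and the window of Pramel53 was identical to that of Pramel54. Pramel36 and Pramel43 carried TATAAA 28 bases before the start and Pramel53 55 bases before it. On either strand and anywhere in the window, TATAAA was found in 17 of the 23 windows on chromosome 5 and 27 of all 57, against 13.7% of 21683 protein-coding genes, and CCAAT in 44 of 57 against 39.8%. On the gene's own strand and 20 to 40 bases before the start, TATAAA was found in 6 windows on chromosome 5 and in 11 of the family, against 2.40% of protein-coding genes. The windows of Pramel6, Pramel7 and Pramel13 held no TATAAA, and neither did that of Pramel33 on chromosome 5. CG sites in the family's windows had a median of 2, and of 1 on chromosome 5, against 8 over all protein-coding genes. The chromosome X windows held 9 to 10 and those of the large chromosome 4 cluster 0 to 21. Pramel13 held 7, Pramel7 held 5 and Pramel6 held 3. These are matches of letters in the reference and carry no measurement of a factor.

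Recovered reads summed over genes came to 12028659 to 45689196 per library, of which the family took 0.0182 to 0.0609%. A read can count in more than 1 gene, so these sums are not library sizes. A library gave a single Pramel gene 0 to 2499 LAP2B reads. Values are given as relative coverage, a gene's coverage divided by that of the library's median gene, and log2 changes are on the scale of relative coverage plus 0.1. Between genes of different length, levels are given per 1 kb bin.

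In WT naive cells most of the family lay above the median gene in LAP2B contact. The falls that chose the family were measured from WT libraries. Members high in WT were therefore favoured, and these levels are not independent of that choice. The per-bin level exceeded that of the median gene (0.166) in 48 of 57 members. It was highest for Pramel11 at 0.779 ± 0.151 (SD, n = 3) and Pramel13 at 0.697 ± 0.107, both in the large chromosome 4 cluster, and Pramel31 (0.486 ± 0.081) and Pramel7 (0.479 ± 0.041) followed. Pramel11 and Pramel13 overlap within their spread, as do Pramel31 and Pramel7. The cluster medians were 0.307 for the large chromosome 4 cluster, 0.228 for chromosome 5 and 0.108 for chromosome X, whose 5 genes were all below the median gene. Pramel3b was the lowest of all at 0.0567. Bulk libraries cannot tell apart fewer cells with a contact and a weaker contact in each cell.

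LMNB1 ranked the family in nearly the same order. Its per-bin level was 0.781 ± 0.186 at Pramel11 and 0.711 ± 0.081 at Pramel13, and across the 57 genes the naive LAP2B and LMNB1 levels had a Pearson r of 0.97 (Spearman rho 0.90). The IGG control shared much of this order, with r = 0.89 against LAP2B (rho 0.77), and it too was highest at Pramel11 (0.324 ± 0.082) and Pramel13 (0.271 ± 0.056). These correlations are descriptions over genes counted in the same libraries, many of them near-identical copies. Within chromosome 5 the likeness was lower, with r = 0.61 between LAP2B and LMNB1 and r = 0.11 between LAP2B and IGG. There the IGG level (median 0.128) was under that of the median gene (0.164) in 22 of 23 members, while LAP2B was above its median gene in 22 of 23.

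**Figure D1:**
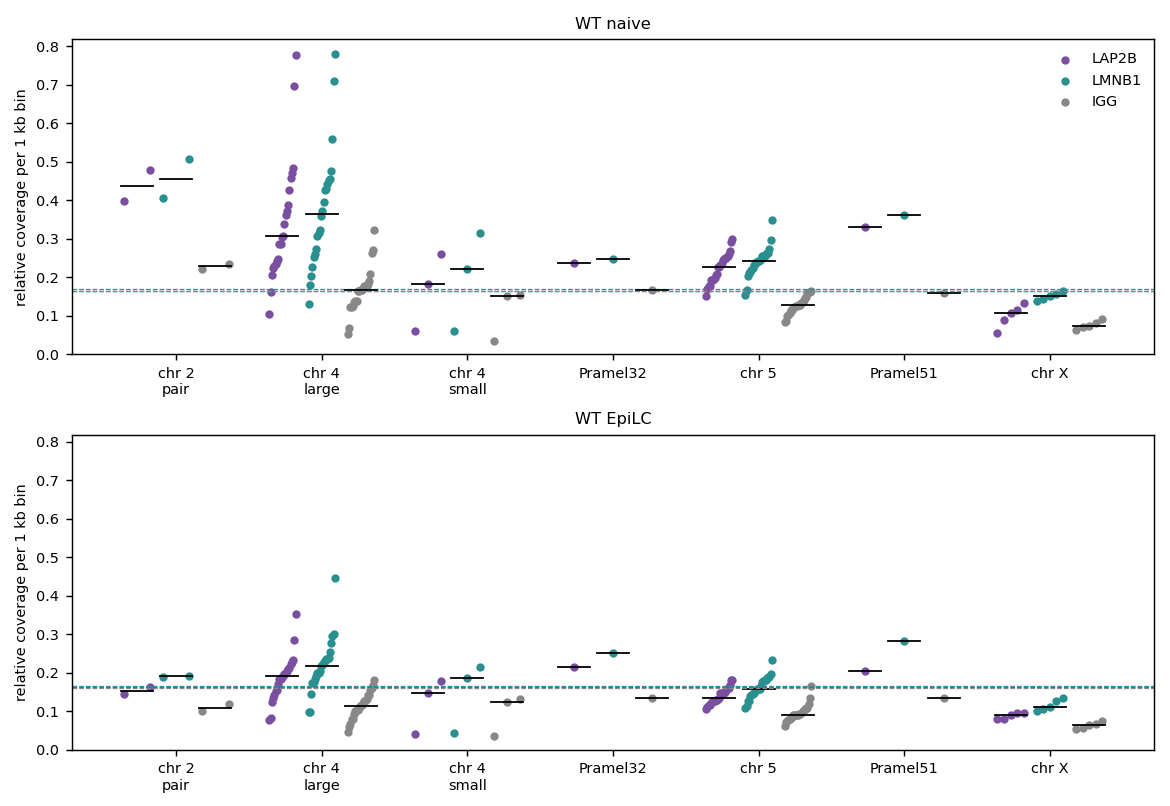
Mean relative coverage per 1 kb bin in WT cells for each Pramel gene, by cluster and by antibody (n = 3 libraries each), with black bars at cluster medians and dashed lines at the median over all genes. In naive cells the highest points are Pramel11 and Pramel13 of the large chromosome 4 cluster (0.779 and 0.697 for LAP2B), the chromosome X genes lie under the dashed lines, and in EpiLC cells the cluster medians of the chromosome 5 and large chromosome 4 genes are lower (0.134 and 0.191 for LAP2B against 0.228 and 0.307).

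The lower LAP2B coverage of TKO and QKO cells, which chose the family, was most marked on chromosome 5. Pramel33 (ENSMUSG00000096044, chr5:93629688-93688059) had relative LAP2B coverage of 12.7, 10.5 and 12.6 in the naive WT libraries, 2.37, 1.90 and 1.93 in TKO and 0.775, 0.920 and 0.911 in QKO. The groups did not overlap, and the log2 change from WT to QKO was -3.63, the lowest in the family. Pramel47, Pramel56, Pramel43 and Pramel42 followed at -3.36, -3.36, -3.35 and -3.29, and the highest change on chromosome 5 was -1.85 at Pramel53. This order depends on the added 0.1, which weighs more on short genes with low sums. Pramel36 and Pramel43 had mean naive QKO coverage of 0.0762 and 0.0667, under that 0.1. Per bin, Pramel43 went from 0.257 in naive WT to 0.0111 in naive QKO cells, and Pramel33 from 0.199 to 0.0145. All 23 genes of the cluster had a log2 change under -1 in both naive TKO and naive QKO cells.

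The other places changed less. In the large chromosome 4 cluster the naive QKO change ran from -2.32 at Pramel21 to -0.23 at Pramel30, and the first 2 genes, Pramel1 and Pramel12, stood at -0.57 and -0.41 and the last, Pramel13, at -0.78. In the small cluster it ran from -1.09 at Pramel17 to -0.51 at Pramel18, and on chromosome X from -1.84 at Pramel3a to -0.14 at Pramel3b. Pramel6 was the 1 member with a change above 0, at 0.07, and Pramel7 stood at -0.32. On the spike-in scale that direction turned, with -1.04 at Pramel6, -1.45 at Pramel7 and all 57 members below 0. In naive TKO cells Pramel6 and Pramel7 were the 2 members above 0, at 0.63 and 0.35. On the spike-in scale these stood at 0.03 and -0.26. Over the family, 35 of 57 genes had a log2 change under -1 in naive TKO cells and 46 of 57 in naive QKO cells, where 7.21% and 29.2% of all tested genes did. The median over all tested genes itself stood at -0.28 in naive QKO cells and -0.11 in naive TKO cells, against -1.89 and -1.17 over the family. Between TKO and QKO the family median was -0.76, with 22 of 57 genes under -1 (8.71% of all genes) and every member below 0.

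The same contrasts were smaller in EpiLC cells. From WT to TKO, 18 of 57 genes had a log2 change under -1, all on chromosome 5, where 0.919% of all genes did, and from WT to QKO 24 of 57 did, where 3.21% of all genes did. Pramel33 fell furthest in QKO, at -2.44, with 7.73, 6.94 and 7.01 in WT and 1.27, 1.24 and 1.25 in QKO. From TKO to QKO no member was under -1 (0.0483% of all genes) and the family median was -0.19, ranging from -0.86 at Pramel20 to 0.67 at Pramel44. The TKO EpiLC libraries gave Pramel44 only 0, 2 and 12 reads, with mean coverage of 0.0378, under the added 0.1. Values of copies alike in coding sequence and start window rested on few reads. Pramel53 and Pramel54 had naive QKO changes of -1.85 and -2.76. The naive QKO libraries held 20, 23 and 14 reads for Pramel53 and 11, 12 and 9 for Pramel54. Mean coverage there was 0.163 and 0.0931, near the added 0.1. Reads from identical stretches cannot be assigned, and whether these copies differ was not tested. The study did not use LAP2B as a stand-in for the lamina in EpiLC cells, where it also marked other regions.

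**Figure D2:**
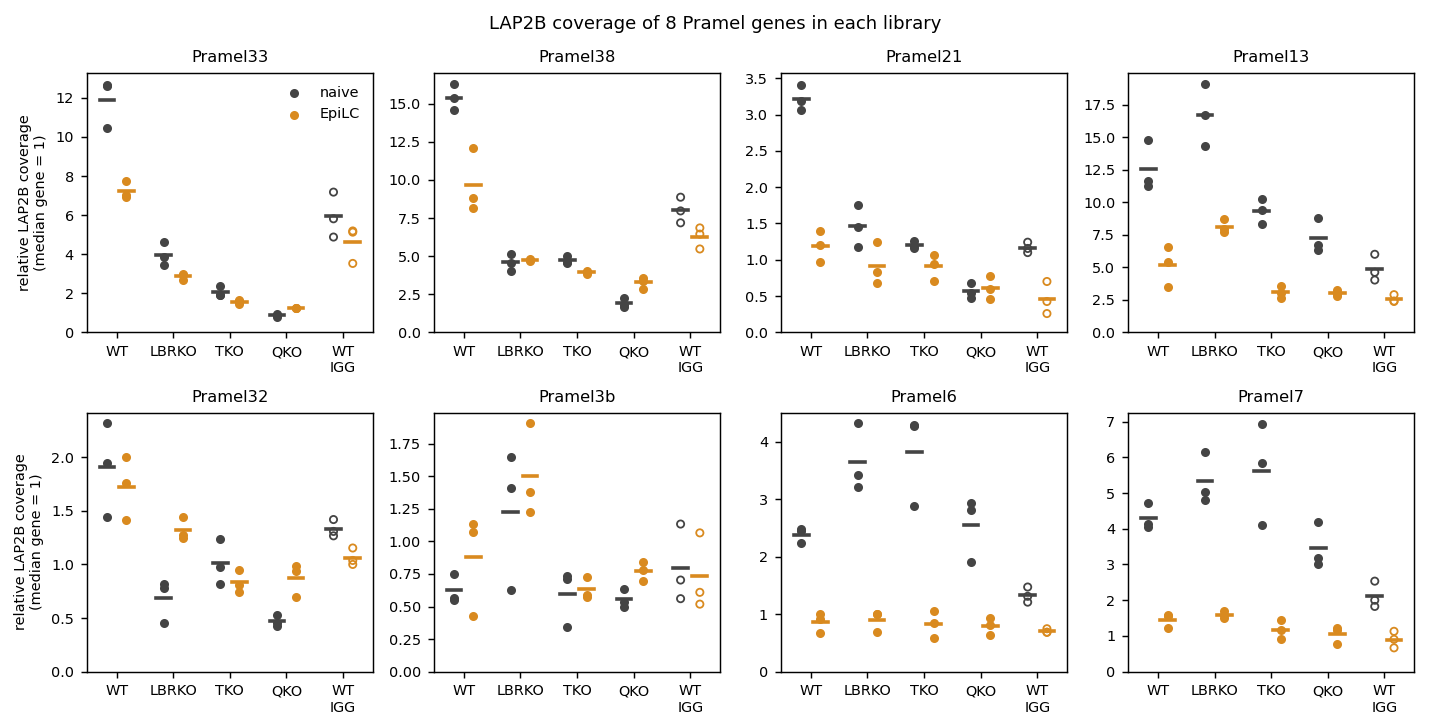
Relative LAP2B coverage (median gene = 1, linear axis from 0) of 8 Pramel genes in each of 24 LAP2B libraries and in the 6 WT IGG libraries (open points), with bars at the means of 3 libraries. Pramel33 and Pramel38 are highest in WT, whereas Pramel6 and Pramel7 keep naive levels above the naive IGG points in all 4 genotypes and drop in EpiLC cells.

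LBRKO libraries were not used to choose the family, but the WT libraries were. Members high in WT were favoured by that choice, so the LBRKO counts and p-values at both stages are not independent of it. In naive cells LAP2B coverage was lower in LBRKO than in WT cells at every chromosome 5 member. By limma with Benjamini-Hochberg adjustment over 70381 genes, 37 of 57 members fell and 4 rose, where 28.3% of all tested genes fell and 28.5% rose. The family median was -0.83 against 0.03 over all genes. All 23 members on chromosome 5 fell, with changes of -1.01 to -1.92, as did Pramel32 (-1.36) and Pramel51 (-1.19). No label says whether the 3 libraries of a group came from separate cultures, so these p-values measure the spread between libraries.

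Pramel38 (ENSMUSG00000096259, chr5:94304436-94369394) gave the firmest fall. Its relative coverage was 15.4, 16.3 and 14.6 in naive WT and 5.16, 4.58 and 4.03 in naive LBRKO libraries, a log2 change of -1.73 ± 0.13 (SE, n = 3, limma adjusted p = 6.6e-16). Pramel43 had 1.32, 1.95 and 1.35 in WT and 0.359, 0.282 and 0.343 in LBRKO, a change of -1.92 ± 0.31 (limma adjusted p = 5.6e-07). Pramel37 had 1.24, 1.46 and 1.68 in WT and 0.489, 0.231 and 0.324 in LBRKO, a change of -1.83 ± 0.27 (limma adjusted p = 9.3e-08). In all 3 genes every LBRKO library lay below every WT library.

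The large chromosome 4 cluster was uneven. Of its 22 genes 9 fell and 2 rose, and all that fell lay from Pramel21 to Pramel28, in the first part of the cluster along the chromosome. Pramel21 had 3.06, 3.41 and 3.18 in WT and 1.45, 1.18 and 1.75 in LBRKO, a change of -1.10 ± 0.22 (limma adjusted p = 3.6e-05). Pramel30, toward the far end and with a near-identical copy in Pramel14, rose by 0.58 ± 0.18 (limma adjusted p = 0.0065), from 3.89, 3.39 and 4.06 to 6.60, 4.87 and 5.68. Pramel13, the last gene, was called higher, from 11.6, 14.8 and 11.3 to 19.1, 14.3 and 16.7, with 1 LBRKO library inside the WT range and an adjusted p of 0.016 by limma. That call was lost without LBRKO replicate 1 or WT replicate 1 or 3 (limma adjusted p = 0.101, 0.0653 and 0.0758). Pramel1, the first gene, stood at 0.41 and did not pass (limma adjusted p = 0.10), and Pramel12, Pramel4 and Pramel5 stood at -0.17, -0.42 and -0.27 without passing.

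The chromosome 2 pair did not fall. Pramel6 rose by 0.58 ± 0.21 (limma adjusted p = 0.014), from 2.23, 2.45 and 2.48 in WT to 4.32, 3.21 and 3.43 in LBRKO, and its libraries did not overlap. Without LBRKO replicate 1 its change was 0.46 and no longer passed (limma adjusted p = 0.0891). Pramel7 had 4.06, 4.73 and 4.14 in WT and 6.16, 4.79 and 5.03 in LBRKO, a change of 0.29 that did not pass (limma adjusted p = 0.16). On chromosome X, Pramel3b was called higher at 0.79 ± 0.28 (limma adjusted p = 0.015), from 0.567, 0.750 and 0.554 to 1.65, 0.628 and 1.41, so that 1 LBRKO library lay inside the WT range. Without LBRKO replicate 1 or 3 it stood at 0.55 or 0.65 and did not pass (limma adjusted p = 0.134 and 0.0842). Pramel3a was called lower at -0.63 (limma adjusted p = 0.032), a call lost without LBRKO replicate 2 or 3 or WT replicate 1 or 2 (limma adjusted p = 0.0760 to 0.165), and the other 3 genes of that cluster did not pass.

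**Figure D3:**
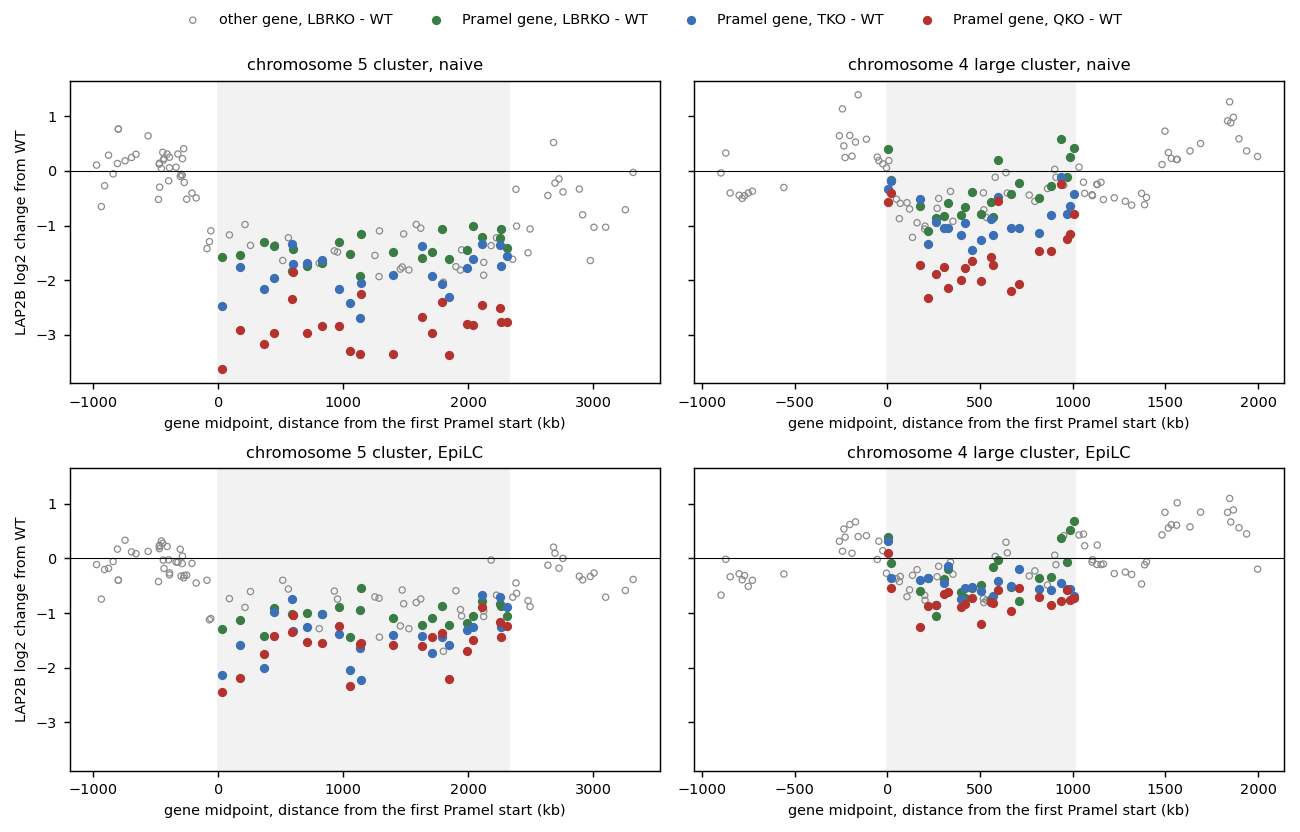
LAP2B log2 change from WT against distance from the first Pramel start (kb) for the chromosome 5 and large chromosome 4 clusters (shaded) in naive and EpiLC cells, with Pramel genes as filled points and other tested genes within 1 Mb as open points for LBRKO. On chromosome 5 all Pramel points lie below 0 in each genotype, and on chromosome 4 the Pramel genes called lower in naive LBRKO cells run from Pramel21 to Pramel28, while other genes inside the cluster also lie below 0 ahead of Pramel21.

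Genes between the Pramel copies moved with them. Of 26 other tested genes inside the chromosome 5 cluster that share no bin with a Pramel gene, all 26 fell in naive LBRKO cells, with a median of -1.47 beside -1.44 for the 23 Pramel genes. The 38 tested genes in the 1 Mb before the cluster had a median of 0.09, with 5 called lower and 4 higher, and the 17 in the 1 Mb after it a median of -0.71. Inside the large chromosome 4 cluster the 26 other genes had a median of -0.54, with 12 called lower, beside -0.46 for the Pramel genes, and the genes in the 1 Mb before and after it had medians of 0.22 and 0.09. Chromosome 2 differed from this. The 68 tested genes in the 1 Mb before Pramel7 and Pramel6 had a median of -1.10 with 60 called lower, and the 68 in the 1 Mb after them a median of -0.92 with 43 called lower and 2 higher, while both Pramel genes had positive changes. Whether the pair differs from its neighbours was not tested.

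In EpiLC cells LAP2B coverage over chromosome 5 was again lower in LBRKO than in WT cells. By limma 28 of 57 members fell and 4 rose, where 10.3% of all genes fell and 13.3% rose. The family median was -0.59 against 0.00 over all genes, and 21 of the 23 genes on chromosome 5 fell. Without LBRKO EpiLC replicate 2 the calls numbered 20 lower and 1 higher, and on the spike-in scale 16 lower and 1 higher. Pramel42 had 3.51, 2.44 and 2.37 in WT and 0.878, 0.733 and 1.31 in LBRKO, a change of -1.43 ± 0.25 (limma adjusted p = 1.2e-05). Pramel35 fell by 1.42 ± 0.23 (limma adjusted p = 3.1e-06) and Pramel33 fell by 1.30 ± 0.15 (limma adjusted p = 7.4e-10). For Pramel33 the LBRKO libraries held 3.00, 2.68 and 2.94, all under its WT libraries.

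The members called higher in EpiLC cells were Pramel13, Pramel15, Pramel3b and Pramel3c. Pramel13 rose by 0.69 ± 0.15 (limma adjusted p = 3.0e-04), from 6.56, 3.50 and 5.39 in WT to 7.95, 8.69 and 7.68 in LBRKO, without overlap. Pramel15, also at the far end of the chromosome 4 cluster, was called higher at 0.52 by limma (adjusted p = 0.045) but not by edgeR (adjusted p = 0.054), from 1.61, 0.802 and 1.33 to 1.85, 1.91 and 1.56, with overlap. Without LBRKO replicate 1, LBRKO replicate 2 or WT replicate 2 it stood at 0.49, 0.47 or 0.26 and did not pass (limma adjusted p = 0.124, 0.145 and 0.408). Pramel3c was called higher at 0.81 ± 0.25 (limma adjusted p = 0.011), from 1.25, 0.811 and 0.557 to 1.50, 1.71 and 1.42, without overlap. Without LBRKO replicate 2 or WT replicate 3 it stood at 0.74 or 0.56 and did not pass (limma adjusted p = 0.0579 and 0.134). Its identical copy Pramel3b was called higher at 0.79 ± 0.28 (limma adjusted p = 0.035), with WT libraries at 1.13, 1.08 and 0.429 and LBRKO libraries at 1.38, 1.91 and 1.22. Without LBRKO replicate 1, LBRKO replicate 2 or WT replicate 3 it stood at 0.83, 0.61 or 0.39 and did not pass (limma adjusted p = 0.0620, 0.191 and 0.387).

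The LBRKO change was compared between the stages directly, as an interaction, which includes the WT libraries used to choose the family. Its p-values and direction are therefore not independent of that choice. The LBRKO change was less negative in EpiLC than in naive cells by limma for 3 of 57 members, Pramel32, Pramel38 and Pramel17. Over all genes 10.7% differed in that direction and 9.35% in the other. No member differed in the other direction, either at an unadjusted p under 0.05 or by edgeR, and 7 members passed an unadjusted p under 0.05 in the first. Pramel38 had LBRKO changes of -1.73 in naive and -0.99 in EpiLC cells, a difference of 0.74 ± 0.19 (limma adjusted p = 0.0043). Pramel32 had 0.458, 0.821 and 0.781 in naive LBRKO and 1.44, 1.28 and 1.24 in EpiLC LBRKO libraries, with changes from WT of -1.36 and -0.35 and a difference of 1.01 ± 0.32 (limma adjusted p = 0.019). Its call was lost without LBRKO EpiLC replicate 1, LBRKO naive replicate 1, WT EpiLC replicate 1 or WT naive replicate 2 (limma adjusted p = 0.0508 to 0.0787). Pramel17 had a difference of 0.75 ± 0.28 (limma adjusted p = 0.049), and its call was lost when any of LBRKO EpiLC replicates 1 and 2, LBRKO naive replicates 2 and 3, WT EpiLC replicates 1 and 3 and WT naive replicates 1 and 2 was left out (limma adjusted p = 0.0624 to 0.152). For most of the family, therefore, the naive and EpiLC effects were not shown to differ, and on the spike-in scale none of the 3 calls was made.

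LAP2B coverage over the family was lower in EpiLC than in naive WT cells. These are the WT libraries against which the TKO and QKO falls that chose the family were measured, so members high in naive WT cells were favoured and the p-values and counts of this comparison are not independent of that choice. By limma 32 of 57 members fell and none rose, where 17.2% of all genes fell and 15.2% rose, and no member passed upward at an unadjusted p under 0.05 or by edgeR. The family median was -0.62 against -0.06 over all genes, and 56 of 57 estimates were below 0. Pramel7, the UHRF1-degrading member, fell most, from 4.06, 4.73 and 4.14 in naive to 1.60, 1.57 and 1.21 in EpiLC cells, a change of -1.505 ± 0.18 (limma adjusted p = 1.5e-08). Pramel6 fell by 1.39 ± 0.21 (limma adjusted p = 1.2e-06), from 2.23, 2.45 and 2.48 to 0.667, 0.915 and 1.00. Pramel21 fell by 1.37 ± 0.22 (limma adjusted p = 4.6e-06), from 3.06, 3.41 and 3.18 to 0.973, 1.40 and 1.20. In each the naive and EpiLC libraries were apart. In the large chromosome 4 cluster 15 of 22 genes fell and on chromosome 5 13 of 23 did, while no chromosome X gene passed (none at an unadjusted p under 0.05 or by edgeR). The family's calls numbered 20 without WT naive replicate 2 and 10 on the spike-in scale.

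LMNB1 coverage fell on priming as well. By limma 32 of 57 members fell and none rose, where 7.46% of all genes fell and 6.14% rose, and no member passed upward at an unadjusted p under 0.05 or by edgeR. The family median was -0.58 against -0.05. Pramel7 fell by 1.35 ± 0.16 (limma adjusted p = 4.2e-05), from 4.94, 4.72 and 4.06 to 1.87, 1.60 and 1.71. Pramel30 fell by 1.27 ± 0.19 (limma adjusted p = 2.9e-04) and Pramel13 fell by 1.25 ± 0.14 (limma adjusted p = 2.8e-05), the latter from 14.3, 12.7 and 11.4 to 4.85, 5.65 and 5.42. The calls numbered 13 without EpiLC replicate 1 and 18 without EpiLC replicate 3, and 5 with no filter on low genes or on the spike-in scale, and none were left when the values were taken per bin.

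The IGG control, which binds neither protein, also fell at some of these genes. By limma 5 of 57 members fell (Pramel7, Pramel11, Pramel13, Pramel21 and Pramel31), where 0.426% of all genes fell and 0.0753% rose, and none rose (none at an unadjusted p under 0.05 or by edgeR, which called 6 lower). The family median was -0.36 against -0.02 over all genes, with 52 of 57 estimates below 0 and 25 members lower at an unadjusted p under 0.05. Pramel7 had an IGG change of -1.16 ± 0.22 (limma adjusted p = 0.0095), from 2.53, 1.83 and 2.00 to 0.667, 1.13 and 0.905. Pramel21 fell by 1.25 ± 0.28 (limma adjusted p = 0.030) and Pramel31 fell by 0.98 ± 0.23 (limma adjusted p = 0.036). The Pramel7 call was lost without EpiLC replicate 1 or naive replicate 1 (limma adjusted p = 0.126 and 0.0934), and those of Pramel21 and Pramel31 without EpiLC replicate 1 or 2 or naive replicate 1 or 3 (limma adjusted p = 0.0576 to 0.226). The 5 calls became 0 without EpiLC replicate 1 or naive replicate 1, 1 without EpiLC replicate 2 and 2 without naive replicate 3. On the spike-in scale the median IGG change of the family was 0.60 and that of all genes 0.90, so the direction there is relative to other genes only. Pramel11 and Pramel13 stood at 0.01 and 0.12 on that scale. The part of this shared change in the LAP2B and LMNB1 falls was not tested.

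In LBRKO cells the stage change is taken from no WT library, though its spread was estimated over all LAP2B libraries in 1 fit. By limma 18 members were lower and 1 higher in EpiLC than in naive LBRKO cells, where 9.74% of all genes fell and 8.37% rose. Without LBRKO naive replicate 1 there were 12 lower and none higher, and on the spike-in scale 9 calls, none of them higher. Pramel6 fell by 1.91 ± 0.21 (limma adjusted p = 7.9e-10), from 4.32, 3.21 and 3.43 to 1.01, 1.00 and 0.692, and Pramel7 fell by 1.67 ± 0.18 (limma adjusted p = 8.7e-10). Pramel61, nearly identical to Pramel4, fell by 1.52 ± 0.29 (limma adjusted p = 7.7e-05), from 1.35, 1.35 and 1.29 to 0.226, 0.337 and 0.766. On chromosome 5 only Pramel33 and Pramel35 passed, both downward, and the Pramel33 call was lost without any 1 of the EpiLC libraries or naive replicate 1 (limma adjusted p = 0.0505 to 0.182), whereas 14 of 22 fell in the large chromosome 4 cluster. Pramel32 rose by 0.89 ± 0.23 (limma adjusted p = 0.0035), and without LBRKO naive replicate 1 it stood at 0.66 and did not pass (limma adjusted p = 0.0631).

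**Figure D4:**
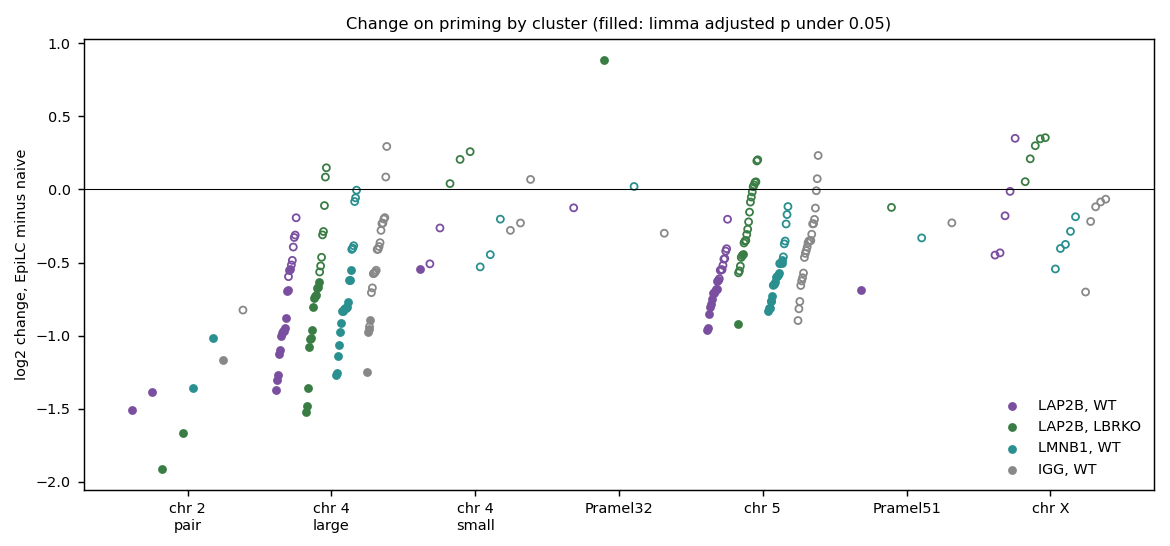
Log2 change from naive to EpiLC cells for each Pramel gene, by cluster, for LAP2B in WT, LAP2B in LBRKO, LMNB1 in WT and IGG in WT, with filled points past a limma adjusted p of 0.05 and open points not past it. Pramel6 and Pramel7 are the lowest LAP2B points (-1.39 and -1.505 in WT), most chromosome 4 points are below 0 for each antibody, and Pramel32 is the one filled point above 0.

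Relative coverage was set against the IGG control of WT cells at the same stage. The chromosome 5 genes lay mostly above this control in WT and below it in the mutants. Each library was divided by its own median gene, so this order is relative to other genes and is not a level against background. Before that division the median gene stood at 0.524 to 0.786 in naive IGG and at 2.90 to 4.13 in naive LBRKO LAP2B libraries. In WT naive cells mean LAP2B coverage was below the IGG mean in 1 of the 23 chromosome 5 genes, and in WT EpiLC cells in 2. In LBRKO, TKO and QKO cells it was below the WT IGG mean in all 23, at both stages. The median log2 ratio of naive LAP2B to WT IGG on chromosome 5 was 0.86 for WT, -0.61 for LBRKO, -1.07 for TKO and -2.09 for QKO cells. Over all tested genes 47.6, 53.5, 56.0 and 59.6% lay below the WT IGG mean in naive WT, LBRKO, TKO and QKO cells. Pramel38 had naive IGG values of 8.87, 7.19 and 7.97, between its WT and its LBRKO values of LAP2B. IGG was profiled only in WT cells, so a different number of Pramel copies in the mutant lines and a change in LAP2B contact cannot be told apart from these files. Mean LAP2B coverage of Pramel6, Pramel7 and Pramel13 stayed above the WT IGG mean in every genotype at both stages. In EpiLC QKO cells the margin was small. Pramel6 had 0.797 ± 0.143 (SD, n = 3) against 0.706 ± 0.035 in IGG, and Pramel7 1.05 ± 0.25 against 0.900 ± 0.232. Pramel13 had 3.00 ± 0.26 against 2.56 ± 0.29.

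Among the 10 genes with no copy at 90% identity or more, the median naive LBRKO change was 0.05, against -0.83 over all 57. Of these, 4 were called lower (Pramel17, Pramel23, Pramel26 and Pramel32) and 2 higher (Pramel6 and Pramel13), where 28.3% of all genes were lower and 28.5% higher. The call of Pramel26 was lost without LBRKO replicate 2 or WT replicate 1 or 2 (limma adjusted p = 0.102, 0.0869 and 0.121). Their median naive QKO change was -0.93 against -1.89. Since none of the 10 lies on chromosome 5, distinctness and place cannot be told apart here. On priming in WT cells their medians were -0.54 for LAP2B and -0.63 for LMNB1, close to the -0.62 and -0.58 of the family.

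Other large tandem families also fell. Of 111 tested Vmn2r genes, a family of vomeronasal receptors, 107 fell and 1 rose in naive LBRKO cells, with a median of -1.42, beside -1.44 for the Pramel genes of chromosome 5. Of 1016 tested class II Or genes, which encode olfactory receptors, 819 fell, with a median of -1.09. Over all tested genes 28.3% fell and 28.5% rose. In naive QKO cells the Vmn2r and Or medians were -1.94 and -1.57, beside -2.84 on chromosome 5 and -1.68 in the large chromosome 4 cluster. In relative coverage Vmn2r genes lay below the WT IGG mean in 84.7% of cases for naive LBRKO and 99.1% for naive QKO cells. Or genes did in 76.5 and 96.6%. In naive TKO cells 43.2% of Vmn2r and 47.4% of Or genes did, with median log2 ratios to WT IGG of 0.05 and 0.02, beside all 23 genes and -1.07 on chromosome 5. In EpiLC LBRKO cells 41.4% of Vmn2r and 34.8% of Or genes did, with median changes of -0.68 and -0.38, beside all 23 genes and -1.03 on chromosome 5. In EpiLC cells the shares were 26.1 and 35.5% for TKO and 64.0 and 59.0% for QKO, again beside all 23 genes. In IGG the Vmn2r and Or medians on priming were -0.30 and -0.23. No test of these differences was made. The Pramel family was chosen for its LAP2B falls from WT to TKO and QKO cells. Its standing beside the Vmn2r and Or genes is therefore not independent of that choice. Among relatives left out by the rule, the pseudogenes Pramel58 and Pramel59 on chromosome 5 had naive QKO changes of -2.62 and -2.85, while Prame62 near the small chromosome 4 cluster had -1.18 and Pramex1 on chromosome X -0.67.

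Genes for known partners and targets of PRAME proteins were also examined, with Lifr, Il6st and Stat3 of LIF signalling beside them. A list of 16 (the ligase subunits Cul2, Elob, Eloc and Rbx1, the methylation genes Uhrf1, Dnmt1, Dnmt3a, Dnmt3b and Dnmt3l, the retinoic acid receptors Rara, Rarb and Rarg, and Ezh2, Lifr, Il6st and Stat3) had a median LAP2B change of 0.72 from WT to LBRKO in naive cells, with 10 called higher and 2 lower, where 28.5% of all genes were higher and 28.3% lower. In EpiLC LBRKO cells 3 were called higher and 2 lower, with a median of 0.15, where 13.3% of all genes were higher and 10.3% lower. The list was chosen with earlier results known, and no test of the list was made. In naive LBRKO cells Rbx1 rose most, by 1.46 ± 0.19 (limma adjusted p = 2.6e-09), and Rarb, a retinoic acid receptor and a target of that pathway, fell by 1.17 ± 0.09 (limma adjusted p = 2.4e-16). On priming in WT cells 6 rose and 3 fell in LAP2B, where 15.2% of all genes rose and 17.2% fell, with Uhrf1 up by 0.70 ± 0.15 (limma adjusted p = 2.2e-04) while Lifr, the LIF receptor, fell by 0.80 ± 0.09 (limma adjusted p = 7.3e-09). In IGG 1 of the 16 was called lower (0.426% of all genes), Lifr, with a change of -0.44 ± 0.10 (limma adjusted p = 0.035) that turned above 0 on the spike-in scale.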

How the data were processed

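LAP2B, LMNB1 and IGG CUT&RUN of mouse cells was analysed in 36 libraries, in 12 groups of 3 taken from the sample labels. Per the study's methods and the submitters' processing notes, the authors aligned read pairs to mm39 with Bowtie2 2.3.5.1, kept properly paired primary alignments without duplicates with SAMtools 1.10 and made RPKM coverage in 1 kb bins with deepTools, scaled by yeast spike-in reads. The deposited signal of a gene is the sum of this coverage over the bins it touches and is not divided by gene length. All values were whole multiples of 1 read (tolerance 0.05 of a step), and reads were recovered from these steps. Genes sharing all bins (343 sets) held equal values.

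Each value was divided by the library's median over tested genes. The lowest 10% of genes by mean were left out, which left 70381 genes, all 57 Pramel genes among them. Groups were compared with limma 3.58.1 in R 4.3.3 on log2(relative coverage + 0.1), all groups of a target in 1 fit, with Benjamini-Hochberg adjustment over all tested genes and a threshold of 0.05. TKO and QKO comparisons, which chose the family, were described without a test. Alternatives were the spike-in scale, division by the mean gene, a pseudocount of 0.5, no filter, values per bin, only the compared groups, a replicate block, leaving out each library, edgeR 4.0.16 on the recovered reads and, added after the data were seen, only genes with closest coding identity under 90%; an alternative on protein identity was not run. The scripts were tested on simulated data.

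The members, the partner list and the comparison families were chosen with earlier results of these data known. Genes named were the members with the lowest and highest naive QKO change in each cluster, the 5 lowest of the family, the 3 called members with the largest change in each direction of a tested comparison, Pramel1, 3, 4, 5, 6, 7, 12 and 13, and others named after their values were seen. Coordinates are GENCODE gene bounds on GRCm39. Clusters join members under 1 Mb apart. Recovered reads summed over genes were 12608484 to 41198406 for LAP2B, 29522895 to 37189077 for LMNB1 and 12028659 to 45689196 for IGG. Tables of transposable elements were not used.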

Additional observations from a re-analysis of the deposited data

Results flagged for a closer look

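The LBRKO change of LAP2B differed between the stages by limma's interaction term for 3 of the 57 Pramel genes, a smaller share than over all tested genes, of which 10.7% differed in that direction and 9.35% in the other, and on the spike-in scale none of the 3 was called. The differences (EpiLC minus naive, log2) were 1.01 for Pramel32, 0.75 for Pramel17 and 0.74 for Pramel38. Pramel38 had a smaller fall in EpiLC cells. The EpiLC change of Pramel32 was -0.35 and did not pass (limma adjusted p = 0.29). Pramel17 was not called in EpiLC cells, where the genes of its cluster lay between -0.03 and 0.12. The comparison includes WT libraries used to choose the family, so its p-values and direction are not independent of that choice. With 3 libraries per group, no group was large enough for a test of single outlying libraries.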

How the results depend on the processing

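Values are the number of Pramel genes called by limma, or the median log2 change of the 57 genes where no test was made. The naive LBRKO comparison called 41 genes and stayed within 1.5 times of that under each processing alternative run on all 57 genes, edgeR included. On the spike-in scale 17 genes were called in EpiLC LBRKO cells, 10 on priming in WT, 9 on priming in LBRKO, 0 for the stage difference of the LBRKO effect, 5 for LMNB1 and 0 for IGG. The medians there were -1.72 for TKO and -2.79 for QKO against WT and -1.15 for QKO against TKO in naive cells, and -0.90, -1.64 and -0.72 in EpiLC cells. That scale moved the median of all genes to -0.63 for TKO, -1.19 for QKO and 0.21 for LBRKO in naive cells, to -0.73 for QKO in EpiLC cells, and to 0.22 for LMNB1 and 0.90 for IGG on priming. Division by the mean gene gave 19 calls on priming in WT, 1 for the stage difference and 20 for LMNB1. A pseudocount of 0.5 gave 6 calls for the stage difference and medians of -1.31 (QKO against WT) and -0.52 (QKO against TKO) in naive cells and -0.46 (TKO) and -0.65 (QKO) in EpiLC cells. With no filter LMNB1 gave 5 calls and IGG 0, and per bin both gave 0, where 0% of all genes passed too. Over the 10 genes under 90% coding identity, an alternative chosen after seeing the data, 3 were called in EpiLC LBRKO cells, 2 for the stage difference and 2 for IGG, and the medians were -0.53, -0.93 and -0.53 for naive TKO, QKO and QKO against TKO and -0.41 and -0.60 for EpiLC TKO and QKO. Apart from this smaller gene set the cause of these shifts was not tested.

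Leaving out each library in turn gave 37 to 41 calls for naive LBRKO, 21 to 30 for EpiLC LBRKO, 20 to 31 on priming in WT, 12 to 21 on priming in LBRKO, 1 to 3 for the stage difference, 13 to 35 for LMNB1 and 0 to 5 for IGG. The stage difference had 1 call without LBRKO EpiLC replicate 1, WT EpiLC replicate 1 or WT naive replicate 2.

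With the replicate number as a block the calls were 42, 32, 29 and 19 for the LAP2B comparisons in the order above, 2 for the stage difference, 26 for LMNB1 and 3 for IGG. The deviations of same-numbered libraries from their group means had a median correlation of -0.005 for LAP2B (range -0.12 to 0.18). The medians were -0.16 for LMNB1 and 0.009 for IGG. Between libraries of different number they were 0.005 for LAP2B, 0.09 for LMNB1 and -0.003 for IGG. Whether same-numbered libraries shared a batch was not tested.

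Limits lie in the near-identical copies, in 3 libraries per group, in the IGG control being from WT cells only, and in depth, with as few as 0 LAP2B reads on a Pramel gene in 1 library. On the spike-in scale the family median of IGG turned from -0.36 to 0.60, the IGG changes of Pramel11, Pramel13 and Lifr turned above 0, the naive QKO change of Pramel6 went from 0.07 to -1.04 and the naive TKO change of Pramel7 from 0.35 to -0.26. A restriction on protein identity, listed at the outset, was not run.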
